A study of Caenorhabditis elegans with 4 samples.

Results

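The regions described here are the HLH-1::GFP peaks on the X chromosome of Caenorhabditis elegans embryos, taken as every entry of the combined peak list whose chromosome is X. They number 2465 of 13091 peaks in all, and the other 10626 peaks, on the 5 autosomes, serve as background. The assay was chromatin immunoprecipitation followed by sequencing (ChIP-seq) in strain OP64, which is unc-119(ed3) III and carries the integrated array wgIs64, holding unc-119(+) together with hlh-1 fused to TY1, EGFP and 3xFLAG. All 4 samples, 2 of ChIP DNA and 2 of input DNA, came from hermaphrodite embryos of this strain, so there was no untagged or mutant group, and the binding measured is that of a transgenic fusion made in addition to the animal's own protein. The place where the array is inserted is not given in the sources used here. The authors deposited a single list, which its name calls combined, and it is read here as covering replicates 1 and 2 jointly. For each peak it holds the first and last base on the WormBase WS180 build and the q-value of the peak caller, but no read counts. Depth is therefore unknown, the list gives no value of a single replicate, and errors below are spreads between chromosomes or between blocks of a chromosome.

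HLH-1 is the worm member of the MyoD family, basic helix-loop-helix transcription factors that bind short E-box sequences and drive muscle differentiation, and in the embryo it acts mainly in the body wall muscle lineage. Hermaphrodites carry a pair of X chromosomes, and in their somatic cells a condensin-like dosage compensation complex binds along both and lowers transcription. The X chromosome is also poor in genes expressed in the germ line. Autosomes of this worm have gene-dense centres flanked by arms that are richer in repeats and recombine more, a division that is much weaker on X. No genome or gene annotation of WS180 was used here, so peaks are described by position and no gene or sequence is assigned to them.

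The peaks on X had a wider median, covered more of the chromosome and were more often strong than those of any autosome. Their spacing lay within the range of the autosomes. The median width on X was 280 bp against 232 ± 22.0 bp (mean ± SD of the 5 autosomal medians), and chromosome IV came nearest with 268 bp. Among narrower peaks IV was the wider, with a lower quartile of 175 bp against 171 bp on X. The mean widths of X and IV were 328 and 325 bp. Peaks covered 4.56% of X, counted up to 17715075 where the last peak ends, against 3.77 ± 0.353% of the autosomes. A peak is called strong here when its q-value is 1e-10 or less. On X 603 peaks were strong, which is 24.5%, against 1909 autosomal peaks or 18.0% of them, and the single autosomes ran from 14.4% on V to 20.4% on III. In number of peaks X was second, with 139 per Mb behind the 153 of chromosome I. The autosomal mean was 130 ± 16.1 per Mb.

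With chromosomes as the units, 1 X stands against 5 autosomes, and the smallest p that exact permutation can give is 0.167. Width, covered share and share of strong peaks each reached that smallest exact permutation p (two-sided, Benjamini-Hochberg adjusted p = 0.333 over the 6 measures compared), because X was the most extreme of the 6 chromosomes in each. Density, the median gap between neighbours and the share of peaks with a close neighbour each gave an exact permutation p of 0.667 (adjusted p = 0.667). None of the 6 can therefore be called a property of X by this test, and the values describe these chromosomes.

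**Figure D1:**
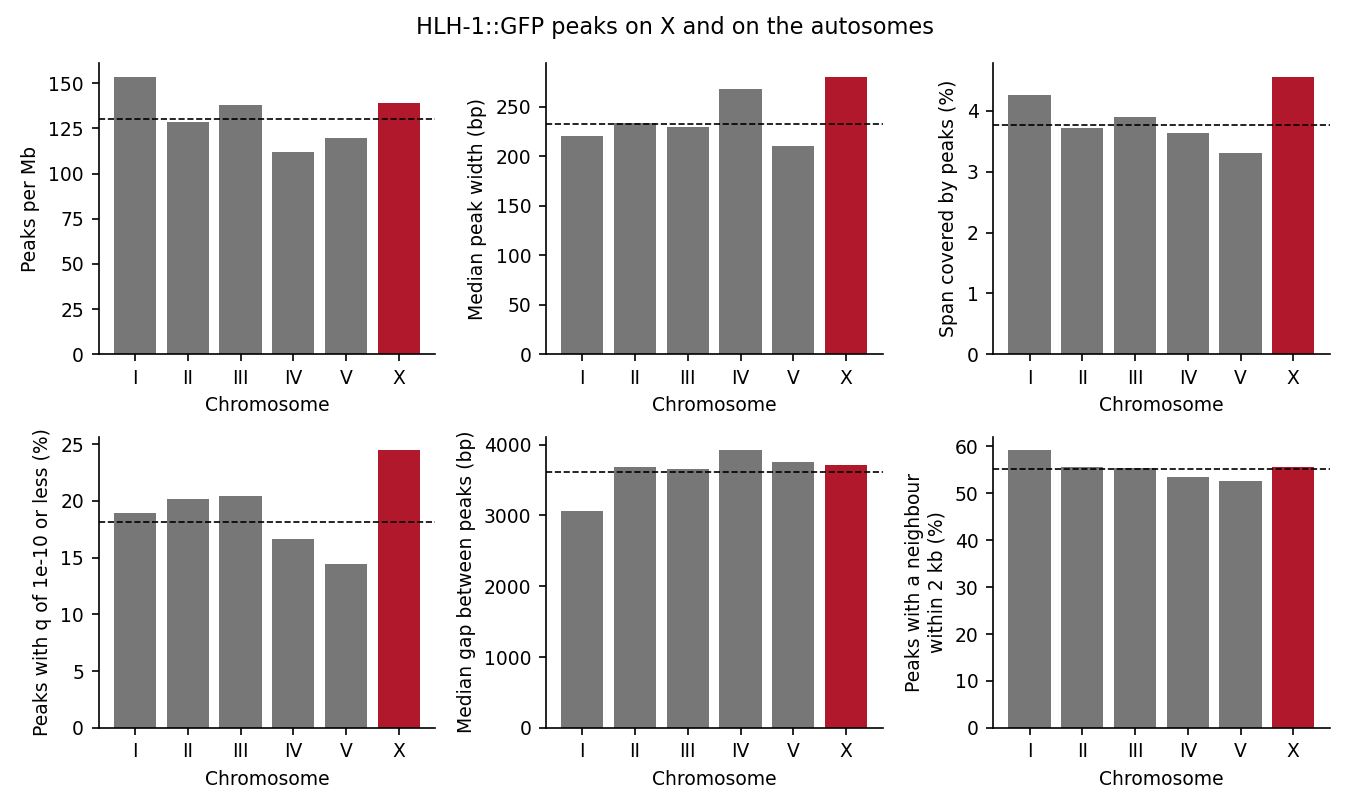
Values of 6 measures on each chromosome (bars, one per chromosome, X in red), with the mean of the 5 autosomes as a dashed line. X has the tallest bar for median width (280 bp), span covered (4.56%) and share of strong peaks (24.5%), and lies near the autosomal mean for gaps and close neighbours.

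X held fewer narrow peaks and more peaks of intermediate width than the pooled autosomes. Peaks under 50 bp made up 7.63% of the peaks on X (188 peaks) and 9.91% of those on the autosomes, where chromosome IV was slightly lower than X with 7.45%. Those from 100 to under 200 bp made up 18.4% and 22.3%, with 18.5% on the lowest autosome. From 300 to under 500 bp the order was the other way, with 28.2% on X (694 peaks) and 22.2% on the autosomes. The highest single autosome had 26.3% there. From 500 to under 1000 bp lay 14.97% on X (369 peaks) and 11.6% on the autosomes, with 14.3% on the highest. X therefore had 39.2 peaks of 300 to under 500 bp per Mb where the autosomes had 28.9 ± 2.93. Broad peaks of 1 kb or more numbered 56 on X, or 3.16 per Mb, against 2.36 ± 0.411 per Mb on the autosomes, of which chromosome III had the most with 2.98. As a share of peaks X was nearly level with 2 autosomes, with 2.27% against 2.16% on III and 2.14% on IV. The pooled autosomes had 1.81%.

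Strength followed width closely on X, with Spearman's rho of 0.74 between width and −log10 q across its 2465 peaks, which are not independent of each other. The q-value depends in part on width, so this relation is partly built in. None of the 793 peaks on X under 200 bp was strong, and neither was any of the 4236 autosomal peaks of that size. The narrowest strong peak on X was 242 bp wide and the narrowest on the autosomes 223 bp. From 200 to under 300 bp 5.97% of the peaks on X were strong, below 4 of the 5 autosomes. The share on X then climbed to 41.5% from 300 to under 500 bp, 62.9% from 500 to under 1000 bp and 89.3% at 1 kb or more. In each of these 3 classes X lay within the range of the autosomes. Chromosome III was above X in all 3, with 44.3%, 70.2% and 97.6%, and IV and V were below X in all 3.

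At equal widths the share of strong peaks differed less. When each autosome's strong shares in 10 width classes were weighted by the widths found on X, the autosomal mean moved from 18.1 ± 2.56% to 22.8 ± 4.15%, near the 24.5% of X. At these weights I, II and III had 24.9%, 25.01% and 27.1%, all above X, and IV and V had 17.5% and 19.3%. Seen from the other side, the median width on X was above the autosomal mean at a given strength except among the strongest peaks. With a q-value above 1e-3 the median on X was 157 bp against 144 ± 19.4 bp, and only chromosome IV was wider with 177 bp. Between 1e-3 and 1e-5 it was 231 bp against 211 ± 23.5 bp, and again only IV was wider with 253 bp. In both of these classes X lay within 1 SD of the autosomal mean. Between 1e-5 and 1e-10 the median on X, 341 bp, exceeded that of every autosome (311 ± 19.8 bp). Between 1e-10 and 1e-20 it was 427 bp and again exceeded all 5 autosomes, whose medians ran from 393 to 414 bp. From 1e-20 to 1e-50 X was no longer above the autosomal mean, with 532 bp against 535 ± 29.0 bp, and at 1e-50 or less it was below it, with 794 bp against 940 ± 183 bp. Over all strong peaks together X had a median of 480 bp, behind 493 bp on V and 484 bp on IV.

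**Figure D2:**
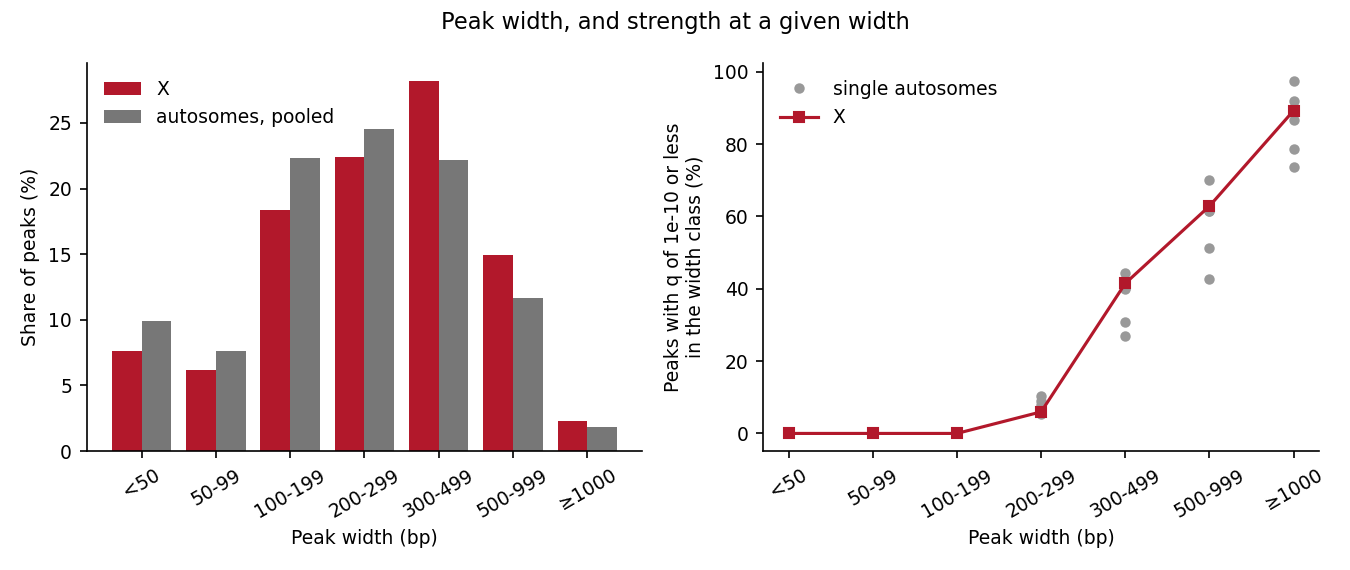
Left, share of peaks in 7 width classes (bp) on X and on the pooled autosomes. Right, share of peaks in each class with a q-value of 1e-10 or less, for X (red line) and single autosomes (grey points). X has a larger share of its peaks from 300 to under 1000 bp than the pooled autosomes. Within each class from 300 bp upward its strong share lies inside the autosomal range.

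The density of X relative to the autosomes was higher in the stronger classes. Peaks with a q-value above 1e-3 numbered 48.5 per Mb on X and 50.7 ± 3.36 on the autosomes, and those between 1e-3 and 1e-5 numbered 31.7 and 34.1 ± 5.72. Between 1e-5 and 1e-10 X had 24.9 per Mb against 21.6 ± 4.21. X did not lead there as a share of peaks, with 17.9% against 18.1% on the highest autosome. Below 1e-10 the classes lay further apart: 18.3 against 13.9 ± 3.41 down to 1e-20, 12.98 against 8.29 ± 1.72 down to 1e-50, and 2.77 against 1.65 ± 0.540 beyond it. In the order of the whole list X held 57 of the 200 strongest peaks (28.5%), 264 of the strongest 1000 (26.4%) and 1095 of the strongest 5000 (21.9%). It held 18.8% of all peaks and 17.7% of the summed chromosome spans.

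Along X the peaks were spread evenly apart from the left end. The 17 whole blocks of 1 Mb held from 96 to 165 peaks with a median of 141. The lowest was the block from 0 to 1 Mb with 96 and the next lowest the block from 1 to 2 Mb with 125. All others held between 135 and 165 peaks. The block from 3 to 4 Mb was the densest, with 165 peaks, 51 of them strong and 5.65% of its bases covered. The block from 0 to 1 Mb was the sparsest in each of these, with 16 strong peaks and 2.45% covered, and its median peak of 212 bp was the narrowest of any block. The widest median, 347 bp, was in the block from 7 to 8 Mb.

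Strong peaks were much less even than all peaks relative to their number, although smaller counts by themselves raise that spread. Strong peaks per block had an SD of 14.3 on the right arm, the last of 3 equal parts of the chromosome. On the left arm it was 11.8 and in the centre 6.50. The block from 12 to 13 Mb held 17 strong peaks of 135, or 12.6%, and the block from 14 to 15 Mb held 50 of 142, or 35.2%. The next block, from 15 to 16 Mb, held 21 of 140 (15.0%), and the one from 16 to 17 Mb held 44 of 152 (28.9%). The blocks from 14 and from 15 Mb thus had nearly the same number of peaks and differed 2.38-fold in strong ones. The 8 very strong peaks with a q-value of 1e-50 or less between 16 and 17 Mb were the most of any block, where the median block had 3 and the block from 0 to 1 Mb had none. Over the 17 blocks the number of peaks and of strong peaks were related with Pearson's r of 0.73 and Spearman's rho of 0.80, as a description of blocks that share 1 list and in which strong peaks are part of the total. Without the first block r was 0.68.

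Divided into 10 equal parts of its span, numbered from the left end, X carried more peaks than the autosomal mean in most of its outer parts, but not in the outermost one on the left. Part 1 of X held 109 peaks per Mb against 123 ± 19.7, and was above 1 of the 5 autosomes. Parts 2, 3, 9 and 10 of X carried 141, 153, 139 and 143 peaks per Mb. The autosomes carried 112 ± 18.4, 127 ± 19.7, 103 ± 22.7 and 117 ± 28.3 there. X was above all 5 autosomes in parts 3 and 9, and above 4 of 5 in parts 2 and 10. In part 7, where the autosomal mean was highest, X was below it with 138 against 153 ± 24.9. For strong peaks part 9 of X carried 32.7 per Mb against 14.9 ± 5.56, and part 2 carried 34.4 against 16.2 ± 5.68. X was above all 5 autosomes in strong peaks in parts 1 to 4, 9 and 10. In part 7 it was lower, with 27.1 strong peaks per Mb against 30.4 ± 7.57, and above 2 of the 5.

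**Figure D3:**
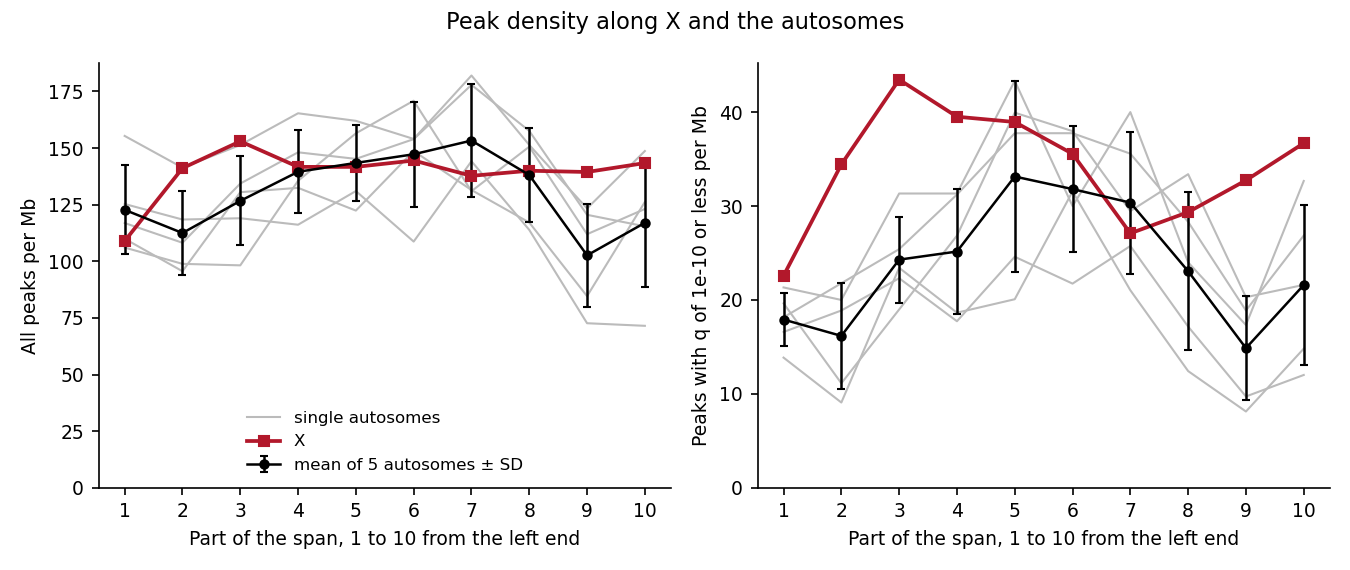
Peaks per Mb (left) and strong peaks per Mb (right) in 10 equal parts of each chromosome's span from the left end: X in red, single autosomes as grey lines, and their mean with SD over 5 autosomes in black. Apart from part 1, with 109 peaks per Mb, X stays between 138 and 153, while the autosomal mean is lower towards both ends.

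The evenness of X depended on the scale at which it was measured. The spread of peak counts was expressed as the variance over the mean of counts per window, a ratio that grows when peaks are concentrated in some windows. In windows of 10 kb it was 1.36 on X and from 1.33 to 1.66 on the autosomes, so X lay within their range. In windows of 100 kb X had 1.60 and the autosomes 1.96 to 2.84. At 1 Mb X had 1.47 against 3.53 to 5.51. The sparse left end weighed most at the largest scale: without the first Mb of each chromosome X had 0.611 over 16 blocks, against 3.63 to 5.58 on the autosomes. As a coefficient of variation, the counts per Mb varied by 10.3% on X and by 15.2% (I) to 22.1% (IV) on the autosomes, and by 6.56% on X and 15.5% to 22.4% without the first block. X was the lowest of the 6 chromosomes in both. Over all blocks the exact permutation p was 0.167 (two-sided, unadjusted and the smallest possible), for a measure added once the values were known. The first block is the sparsest of X, so leaving it out lowers the spread of X by construction and is no separate support. Sparse stretches elsewhere on the autosomes stayed in, such as parts 9 and 10 of IV with 72.7 and 71.5 peaks per Mb. For strong peaks alone the spread on X was not the lowest. Their counts per Mb varied by 30.7% on X, within the 27.4% to 49.96% of the autosomes.

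**Figure D4:**
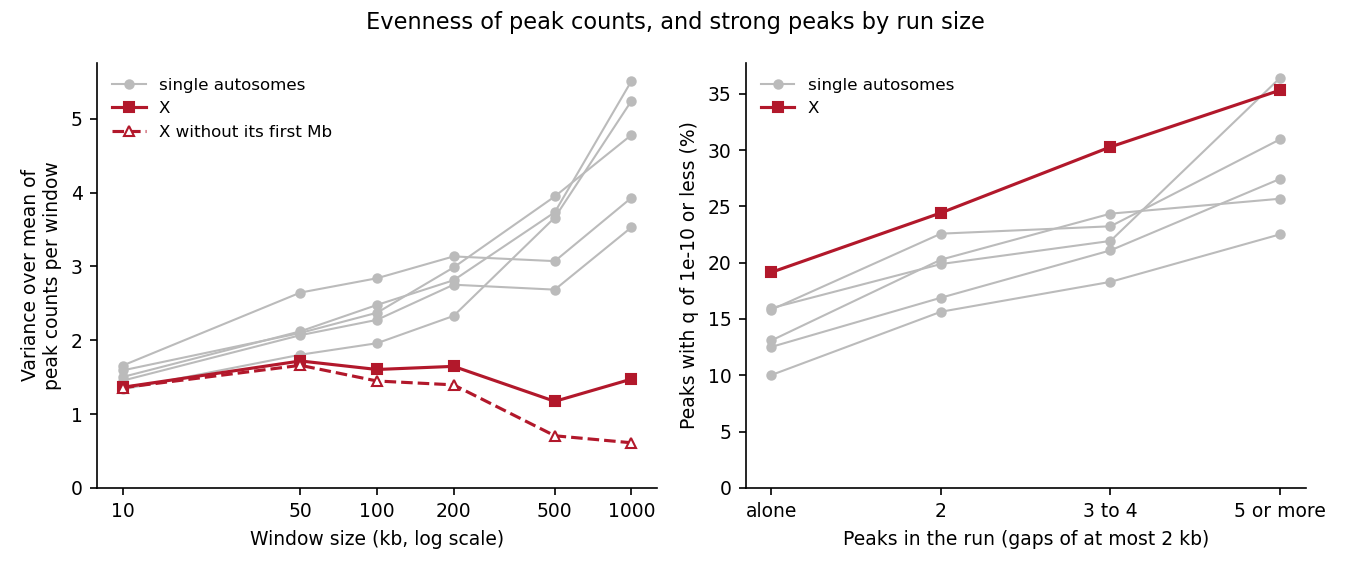
Left, variance over mean of peak counts per window against window size (kb, log scale) for X, X without its first Mb, and single autosomes. X stays between 1.17 and 1.72 while the autosomes climb to between 3.53 and 5.51 at 1 Mb. Right, share of strong peaks among peaks that stand alone or lie in runs of 2, 3 to 4, and 5 or more, where X goes from 19.1% to 35.3%.

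The left end of X was sparse in its first 300 kb. The first 400 kb held 24 peaks, 3 of them strong, which is 60.0 per Mb, where the left ends of the autosomes held 44 (III) to 69 (I). The windows of 50 kb that began at 300001 and 350001 held 6 and 10 of the 24, against a median of 7 on X. The last 400 kb of X held 71 peaks, 16 of them strong, within the 41 (II) to 89 (I) of the autosomal right ends. The first peak of X ran from 8915 to 9261 (347 bp, q of 0.00149). In the first 300 kb there were 8 peaks in all, and only the one from 46282 to 46699 was strong (418 bp, q of 1.13e-38). It was followed by 67.2 kb without a peak, then by a peak from 113876 to 114201, then by 81.3 kb without one. After a pair of weak peaks at 195503 and 199157 came the longest empty stretch of the chromosome, 101 kb from 199184 to 300343.

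Other empty stretches on X were shorter and scattered. The third longest measured 78.9 kb, from 17070588 to 17149530, and the fifth 63.7 kb, from 5869822 to 5933526. Gaps over 50 kb numbered 14 on X, where III had 10, II 13, I 14, V 35 and IV 36. Gaps over 30 kb together took up 14.6% of X, the lowest share of the 6 chromosomes, against 23.4 ± 6.86% of the autosomes. Chromosomes I and III were close to X with 15.7% and 17.2%, while II had 23.7%, V 29.9% and IV 30.3%. The longest gaps of chromosomes V and IV, 251 and 147 kb, were longer than any on X, and II had one of 102 kb. Among the 354 windows of 50 kb on X, 5 held no peak, and 3 of these lay in the first 300 kb. The other 2 began at 13050001 and 13450001. Windows without a strong peak numbered 81, or 22.9%, against 30.9% (III) to 53.3% (V) on the autosomes. X also had the most strong peaks per Mb, 34.0 against 23.8 ± 5.50, which by itself leaves fewer such windows.

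Spacing between neighbours on X lay within the range of the autosomes. The median gap, from the end of a peak to the start of the next, was 3705 bp against 3616 ± 323 bp, and X stood behind IV and V. The middle 50% of gaps on X ran from 1228 to 9151 bp, and the shortest was 200 bp, the limit set by the list itself. A neighbour at most 2 kb away was found for 1373 peaks on X (55.7%) against 55.2 ± 2.52% on the autosomes. Strong peaks considered alone were closer together on X, where they were also more numerous: the median gap between consecutive strong peaks was 15880 bp, the shortest of the 6 chromosomes, against 23829 ± 4327 bp. Even so, 24.5% of the strong peaks on X had another strong one within 2 kb, behind I, II and III, and the autosomes had 26.0 ± 4.01%.

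Peaks with close neighbours were wider and more often strong. Of the 1092 peaks on X that stood alone, with no other within 2 kb, 19.1% were strong and the median width was 242 bp. In pairs these were 24.4% and 278 bp, in runs of 3 to 4 peaks 30.3% and 322 bp, and in runs of 5 or more 35.3% and 377 bp. The autosomes showed the same order at lower levels, from 13.5 ± 2.49% strong among lone peaks to 28.6 ± 5.33% in runs of 5 or more. X was above each autosome in the first 3 classes, and chromosome II was above it in the last with 36.4%. Narrow peaks under 50 bp became rarer along the same order on X, from 9.52% of lone peaks to 3.35% in runs of 5 or more. Of the 56 broad peaks on X, 52 (92.9%) had a neighbour within 2 kb, against 44.7% of its 188 narrow peaks, and the median distance to the nearest neighbour was 459 bp and 2196 bp. On the autosomes the shares were 82.7 ± 7.79% for broad and 44.6 ± 5.62% for narrow peaks.

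Runs of 5 or more peaks, with gaps of at most 2 kb, numbered 42 on X and held 269 of its peaks (10.9%). That is 2.37 runs per Mb, within the 1.60 (IV) to 3.33 (I) of the autosomes. Of these runs 8 had 8 or more peaks, and the first of the 8 began at 3898241. The most heavily covered of the 8 ran from 7214590 to 7226257, with 8 peaks over 11.7 kb, 71.9% of it covered, 5 strong peaks and a lowest q-value of 3.98e-56. It contained 2 of the 10 widest peaks of X side by side, from 7221845 to 7223470 (1626 bp) and from 7223880 to 7226257 (2378 bp). A run of 10 peaks from 6737355 to 6747133 was packed more closely, with a median gap of 349 bp, but its peaks were weaker, with 2 strong ones and a lowest q-value of 1.41e-16. The run of 9 peaks from 12167662 to 12176678 was 54.7% covered and also had 2 strong peaks, the stronger with a q-value of 2.91e-37. The other 3 runs had 8 peaks each and stood out in different ways. The one from 3898241 to 3907258 had 4 strong peaks, among them the sixth strongest of X, and also included a peak of only 15 bp. The one from 3969359 to 3979593 was the loosest of the 3, with a median gap of 1091 bp and 3 strong peaks. The one from 10765903 to 10775012 was 53.5% covered, with 4 strong peaks and a lowest q-value of 4.48e-58.

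The longest runs on X, of 13 peaks each, differed in make-up. The one from 11463413 to 11481730 covered 18.3 kb, with peak widths from 137 to 769 bp and a median of 469 bp. Its strongest peak was its first, from 11463413 to 11463969 (q of 1.38e-16), its second had a q-value of 1.84e-11, and the other 11 were not strong. The weakest of them, also the narrowest, had a q-value of 0.00575. The one from 16375863 to 16392595 covered 16.7 kb and fell into a weak and a strong part. Its first 6 peaks, spread over 9.2 kb, had q-values between 2.25e-08 and 0.00746 and widths of at most 309 bp. Its last 7, packed into 5.6 kb, included all 5 strong ones. They ended with the strongest, from 16391996 to 16392595 (600 bp, q of 3.16e-83), and the widest was from 16387811 to 16388693 (883 bp, q of 3.95e-43). Both runs thus had their strongest peak at one edge, on the left in the first and on the right in the second.

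**Figure D5:**
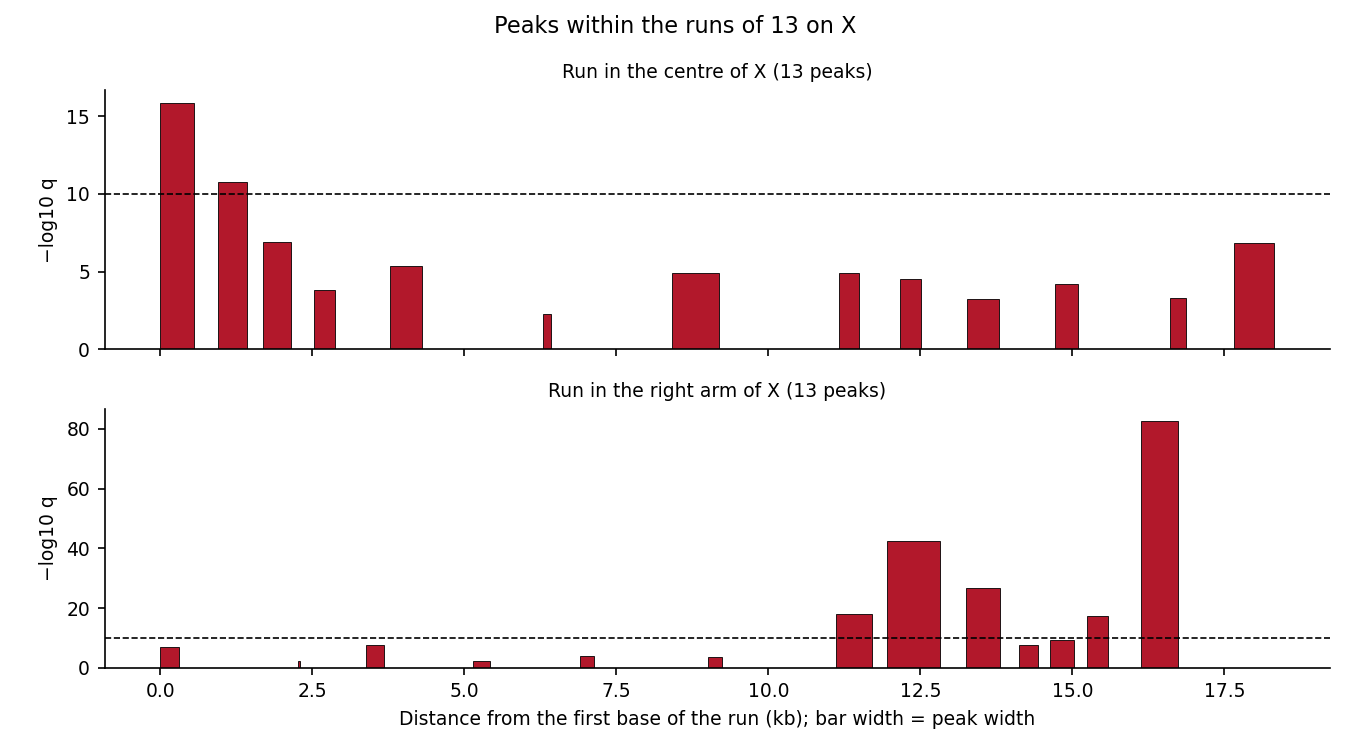
Peaks of both 13-peak runs on X by distance from the first base of the run (kb), with bar width as peak width and height as −log10 q on separate linear axes. The dashed line marks a q-value of 1e-10. In the upper run 2 peaks at the left edge pass it, and in the lower run 5 peaks, all in its last 5.6 kb.

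The strongest peaks of X were shorter than those at the head of the autosomal list. The strongest, from 5811774 to 5812708, was 935 bp wide with a q-value of 1.52e-128 and ranked 11 in the whole list. The next was from 16525347 to 16526094 (748 bp, q of 1.77e-121, rank 15), and the third from 1110395 to 1111218 (824 bp, q of 4.49e-105, rank 21). The fourth, from 16534336 to 16535442 (1107 bp, q of 1.69e-101), lay 8.2 kb to the right of the second. These 4 were thus spread over 3 places on X, near 1.1, 5.8 and 16.5 Mb.

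The fifth and sixth were from 3689267 to 3689785 (519 bp, q of 3.54e-99) and from 3900610 to 3901574 (965 bp, q of 6.49e-98). The seventh to the tenth all lay beyond 14 Mb. They ran from 14016461 to 14017061 (601 bp, q of 5.28e-97), from 16929340 to 16930561 (1222 bp, q of 5.31e-95), from 14502671 to 14504699 (2029 bp, q of 9.29e-95) and from 14653351 to 14654051 (701 bp, q of 9.04e-90). In all, 6 of the 10 were beyond 14 Mb and 7 were under 1 kb wide. The blocks from 14, 15 and 16 Mb and the incomplete last block held 142, 140, 152 and 99 of the 2465 peaks. They held 4, 1, 8 and 2 of the 49 very strong peaks. The 10 strongest on X had a median width of 880 bp, from 519 to 2029 bp, while the 10 strongest autosomal peaks had 2496 bp, from 1176 to 3214 bp. Those autosomal peaks had lower q-values, so the sets differ in strength as well as in width.

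The widest peaks of X were not its strongest. The widest ran from 4960389 to 4963954 (3566 bp) with a q-value of 1.61e-69, 18th on X. After it came the region from 7223880 to 7226257 (2378 bp, 35th on X) and that from 11604398 to 11606524 (2127 bp, q of 3.32e-49, 52nd). The region from 14502671 to 14504699 (2029 bp) was the only one among both the 10 strongest and the 5 widest. The fifth widest, from 5819962 to 5821882 (1921 bp), had a q-value of only 5.31e-19 and stood 315th, in a run of 7 peaks 7.3 kb to the right of the strongest peak of X. At the other extreme 6 peaks on X were 1 bp long, with q-values from 0.000346 to 0.00842. The 5 autosomes had 4 to 16 such peaks each.

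The window of 50 kb that held the strongest peak was also the richest in strong ones. From 5800001 to 5850000 lay 17 peaks, 9 of them strong, where the mean window of X held 1.70 strong peaks. The windows with the most peaks held 18 each and began at 3100001, 12150001 and 16350001, with 4, 4 and 6 strong peaks. A window from 11450001 to 11500000, which contains the first of the 13-peak runs, held 15 peaks of which 2 were strong. The count of peaks in a window and the count of strong ones were thus not in the same order among the densest windows. The median window of X held 7 peaks, the same as on I and III, and no window of X reached the highest count of I (21), II (26), III (20) or V (21).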

How the data were processed

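ChIP and input DNA, 2 samples each, were grouped by their descriptions. Per the file headers, the build is WormBase WS180, and the source column names PeakSeq as the peak caller the authors used. Each q-value is as deposited by the authors, given in the score and the attribute column with 0 differences, and the largest is 0.00994. Start and end positions are other deposited values. How reads were aligned, filtered and scaled to input is not given in the sources used here. No peaks overlapped (0), and the shortest gap was 200 bp, so calls nearer than that do not appear.

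Python 3.11.15 with pandas 2.3.3, numpy 2.4.6 and scipy 1.17.1 gave widths, gaps, runs and densities, and matplotlib 3.10.9 the figures. Without chromosome lengths, each span was taken up to its last peak, and incomplete last blocks and windows were left out. X was set against the autosomes by an exact permutation test over 6 chromosomes. The scripts were tested on simulated data. Regions were named by rule: the 10 lowest q-values, the 5 widest, the narrowest, runs of 8 or more peaks, the 5 longest gaps, and extreme windows and blocks. Other regions were named after their values were seen. The peaks of X, the measures and the rules were chosen with earlier results of these data known. Genes and sequences were left out for lack of WS180. Cuts on q, width and distance, and each autosome left out, were tried.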

Additional observations from a re-analysis of the deposited data

How the results depend on the processing

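Of 66 alternative values for 10 results, 55 kept the direction, or for counts stayed within 1.5 times. The longest empty stretch, a single value, was counted as changed when it moved at all. Width, covered share, density and share of strong peaks kept theirs in every alternative run, with ratios to the autosomal mean from 1.03 to 1.60. Except for density, X was above all 5 autosomes, so leaving 1 out could not change the direction. At a q of 1e-10 or less the width ratio was 1.03 and X ranked 3rd. None could pass a threshold of 0.05, since the smallest p is 0.167, or 0.2 with a chromosome left out. The centre of X, the middle of 3 equal parts, held 142 peaks per Mb, the right arm 141 and the left arm 135. The left arm includes the sparse first block. The ratio of centre to arms was 1.03, the lowest of the 6 chromosomes, and 1.03 to 1.10 in the alternatives. Ratios near 1 changed side: the median gap on X relative to the autosomal mean, 1.02 as reported, was 0.892 at a q of 1e-3 or less, 0.666 at a q of 1e-10 or less and 0.987 without chromosome I. The ratio for peaks with a close neighbour, 1.01 as reported, was 0.945 at a q of 1e-10 or less, 0.997 without chromosome V and 0.988 within 1 kb. For gaps at stricter q the higher density of strong peaks on X is part of the construction, and for the others the cause was not tested. Runs of 5 or more peaks on X, 42 as reported, numbered 17 at a q of 1e-3 or less, 11 with gaps of at most 1 kb and 124 with gaps of at most 5 kb, which follows from the sets. The longest empty stretch, 101 kb, was 149 kb at a q of 1e-3 or less and 105 kb without peaks under 50 bp. The ratio of strong shares was 1.07 with autosomes at the widths of X, where X ranked 4th, against 1.35 as reported. This setting and the spread between blocks were chosen after seeing the data. No paired analysis was possible because replicates 1 and 2 share a single combined list, and for the same reason no replicate could be left out. Unknown depth and the limit on q restrict what the weak peaks can show.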
